A study of Homo sapiens with 30 samples.

Results

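Palmul-tang is a herbal formula of Korean medicine that joins the herbs of Samul-tang and of Sagunja-tang in one preparation. At the high dose, 3 genes differed between A549 cells treated with Palmul-tang and cells treated with its component formulas as 1 group. All 3 were lower with Palmul-tang, while DESeq2 called 2 higher and 7 lower, and a fit with replicate numbers as a block 4 and 4. The count of 3 changed when 1 library was left out. It was 39 without the Sagunja-tang library, a fit with Samul-tang as the only component. Against each component by itself 34 genes (Samul-tang) and 28 genes (Sagunja-tang) were called. ID3 was the 1 gene that passed a joint test of being lower than with each component, a call that was lost in 4 of the fits that left out 1 library and in the fit of the compared groups only (adjusted p 0.142 to 1). Of 118 genes that differed between the components, 106 had a Palmul-tang level between them. This is a description with no test, as the genes were chosen and placed with the same component libraries. Palmul-tang differed from neither component in 77 of the 118, and a test of a level between the components called 0 of all genes. Genes of cholesterol and fatty acid synthesis were lower than with Sagunja-tang in 10 of 25 and 4 of 13 tested members, against 0.153% of all genes, and none of these members was called against Samul-tang. Every comparison with Sagunja-tang rests on 1 library, which is assumed to vary like the other groups, so the formula and this library cannot be told apart. The libraries were chosen by their labels, as 3 of Palmul-tang, 2 of Samul-tang and 1 of Sagunja-tang, all at the high dose, which are 6 of the 30 libraries of the series. No measured value entered the choice.

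All cells were A549, a human epithelial line from a non-small cell lung carcinoma, with no genetic change named in the labels. They received an ethanol extract of Palmul-tang, Samul-tang or Sagunja-tang for 24 h at 500 µg/mL (high), 100 µg/mL (medium) or 20 µg/mL (low). Palmul-tang has 3 libraries at each dose, Samul-tang 2 and Sagunja-tang 1, and 3 vehicle libraries serve as background. The labels give the vehicle as 0.1% DMSO and the text of the series gives 2% DMSO, and which of these was used cannot be settled here. A larger formula of the series, Sibjeondaebo-tang, entered the fit for its estimate of the spread and is not compared. Doses were matched by mass of extract, and the amount of each herb in each extract is not given in the sources used here. Nothing in the labels says that libraries of one group came from separate cultures, and p-values then measure only how far libraries of one group lie apart, which may be technical.

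The library codes of all Palmul-tang libraries start with 15, those of both components with 14 and those of the vehicle with E1. All titles name the same batch, and what these starts stand for is not stated. The formula and the code therefore cannot be told apart at a single dose, and the low dose and the change between doses are given beside the high dose for this reason. Single libraries held 30439022 to 34496620 expected counts at the high dose. Pearson correlations of log2 CPM (counts scaled to a common library size) between these 6 libraries across genes were 0.995 to 0.997, and no pair of libraries was as close as counting noise. All 6 epithelial markers checked were above 1 CPM, with summed levels of 8420 to 9160 CPM with Palmul-tang and 9050 to 9690 CPM with the components. Of 8 markers of alveolar type 2 cells, 2 were above 1 CPM, and the surfactant gene SFTPA1 was at 0 in all 6 libraries. Markers of other cell types were low: immune markers summed to 19.4 to 25.2 CPM with Palmul-tang and 25 to 26 CPM with the components, mostly CD68. Endothelial markers summed to 17.3 to 18.3 CPM and 17.5 to 19.2 CPM, mostly KDR, and fibroblast markers to 14.4 to 16.7 CPM and 15.3 to 16.8 CPM. Erythroid markers summed to 28 to 36.1 CPM with Palmul-tang and 24 to 59.7 CPM with the components, the highest value being replicate 3 of Samul-tang, where HBA1 and HBB each had 27.9 CPM. One epithelial marker, the keratin gene KRT19, was lower with Palmul-tang than with Sagunja-tang (log2 change −0.31, edgeR adjusted p = 0.0149). The part of these markers in the results was not tested.

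Both of the component formulas are mixtures, and what their constituents act on was not tested here. The ID genes encode inhibitors of DNA-binding proteins, which pair with basic helix-loop-helix factors and keep them off DNA. ID1, ID2 and ID3 are direct targets of the SMAD proteins that carry bone morphogenetic protein (BMP) signals. Sterol genes are switched on by SREBP-2 when membrane cholesterol is low, and INSIG1 holds SREBP in the endoplasmic reticulum when sterols are plentiful. The aryl hydrocarbon receptor (AhR) is activated by planar aromatic ligands, plant compounds among them, and switches on CYP1A1 and CYP1B1. Hypoxia-inducible factors (HIF) drive CA9, STC1, ANKRD37 and the glycolytic enzymes.

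The promoters of 4 genes on which the results turn are shown here because ID3, ID2 and ANKRD37 were the genes called lower with Palmul-tang than with the components together, and CYP1A1 was the AhR target with the widest spread between formulas. Each runs from 250 bases before to 50 bases after the start site in RefSeq (GRCh38.p14), 5′ to 3′ on the gene's strand: ID3 at chr1:23559452-23559751 (minus strand), ID2 at chr2:8681806-8682105 (plus), ANKRD37 at chr4:185396591-185396890 (plus) and CYP1A1 at chr15:74725479-74725778 (minus). Capitals mark CAGAC, the SMAD box, in ID3 and ID2, ACGTG, the core of the HIF site, in ANKRD37, and GCGTG, the core of the AhR site, in CYP1A1. Both strands were searched.
ID3: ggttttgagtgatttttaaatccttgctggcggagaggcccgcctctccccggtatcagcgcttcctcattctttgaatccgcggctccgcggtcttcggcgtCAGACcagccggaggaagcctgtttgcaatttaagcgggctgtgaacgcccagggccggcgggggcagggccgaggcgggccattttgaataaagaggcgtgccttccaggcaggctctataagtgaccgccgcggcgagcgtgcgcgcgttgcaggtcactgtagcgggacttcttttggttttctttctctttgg
ID2: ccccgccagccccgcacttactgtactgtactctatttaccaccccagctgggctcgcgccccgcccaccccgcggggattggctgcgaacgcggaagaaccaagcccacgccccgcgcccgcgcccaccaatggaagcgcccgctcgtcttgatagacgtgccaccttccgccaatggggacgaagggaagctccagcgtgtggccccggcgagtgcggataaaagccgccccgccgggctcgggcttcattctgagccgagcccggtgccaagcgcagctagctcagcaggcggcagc
ANKRD37: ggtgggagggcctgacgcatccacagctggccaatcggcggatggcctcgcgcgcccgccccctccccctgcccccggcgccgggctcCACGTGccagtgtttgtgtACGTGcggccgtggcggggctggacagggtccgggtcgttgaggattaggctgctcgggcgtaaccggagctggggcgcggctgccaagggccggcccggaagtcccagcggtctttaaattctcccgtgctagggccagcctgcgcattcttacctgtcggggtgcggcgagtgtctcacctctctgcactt
CYP1A1: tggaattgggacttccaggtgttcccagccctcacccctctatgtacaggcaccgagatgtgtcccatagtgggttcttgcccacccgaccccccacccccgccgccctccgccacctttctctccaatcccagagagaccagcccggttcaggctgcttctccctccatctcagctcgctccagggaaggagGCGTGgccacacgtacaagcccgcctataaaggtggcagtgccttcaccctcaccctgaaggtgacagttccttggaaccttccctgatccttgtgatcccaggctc

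The ID3 window held 1 SMAD box and the ID2 window none, and neither held GGCGCC, the site of the BMP-type SMAD proteins. ANKRD37 held ACGTG at 3 positions, 2 of which are the strands of 1 CACGTG, and CYP1A1 held 1 GCGTG. Over 35116 promoters of the same length, CAGAC was found in 45.3%, GGCGCC in 19.2%, ACGTG in 21.4% and GCGTG in 36.5%. A match is a description of the letters and not a site in use.

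The first question was which genes differed between Palmul-tang and its components as 1 group, 3 libraries against 3. Of 17701 genes tested, 3 passed an adjusted p under 0.05 (0.0169%), all lower with Palmul-tang, by edgeR's quasi-likelihood test with Benjamini-Hochberg adjustment. They were ID3, ID2 and ANKRD37, and no gene was higher in this fit. At an unadjusted p under 0.05 there were 1245 genes (7.03%), of which 632 were lower (3.57%). The spread of the log2 changes over 11193 genes with a mean of at least 2 on the log2 CPM scale was 0.0928 (SD), and 12 of these genes were past 1.5-fold, none of them called. Some other fits called higher genes as well. DESeq2 gave 2 higher and 7 lower, a block on replicate numbers 4 and 4, and no filter on low counts 13 and 27. The fit of the compared groups only gave 1 and 2. With other scaling (0 and 3) or the mean of the component groups (0 and 7) none was higher. Leaving out the Sagunja-tang library, which leaves Samul-tang as the only component, gave 39 genes, 9 higher and 30 lower. The count also rose without replicate 3 of Samul-tang.

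ID3 (ENSG00000117318, GRCh38 chromosome 1, 23557918 to 23559794) had 77.6, 78.5 and 83.8 CPM in the 3 Palmul-tang libraries, against 104 and 97.8 CPM in the Samul-tang libraries and 110 CPM in the Sagunja-tang library. The groups did not overlap, and the Palmul-tang libraries were the 3 lowest. The change was −0.38 on the log2 scale against the components together (SE 0.0513, edgeR adjusted p = 0.000273). ID3 was lower than with Samul-tang by itself (log2 change −0.33, SE 0.0571, edgeR adjusted p = 0.00371) and lower than with Sagunja-tang by itself (−0.46, SE 0.0704, edgeR adjusted p = 0.000664).

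ID2 (ENSG00000115738, chromosome 2, 8678845 to 8684453) had 13.2, 14.8 and 12.98 CPM with Palmul-tang, against 19.8 and 19.6 CPM with Samul-tang and 18.5 CPM with Sagunja-tang. Again the groups did not overlap. ID2 fell by 0.50 on the log2 scale against the components together (SE 0.0691, edgeR adjusted p = 0.000273), by 0.53 against Samul-tang (adjusted p = 0.000448) and by 0.44 against Sagunja-tang (adjusted p = 0.0374). The call against Sagunja-tang was lost without replicate 1 (adjusted p = 0.12) or replicate 3 (adjusted p = 0.142) of Palmul-tang. In the fit of the compared groups only, its adjusted p was 0.126. ID2 overlaps the antisense gene ID2-AS1 by exon. The library kit keeps strand, but whether the counting used it is not stated, so reads of this pair cannot be told apart. ID2-AS1 itself was scarce, with a mean of −1.20 on the log2 CPM scale and a log2 change of −0.04.

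ANKRD37 (ENSG00000186352, chromosome 4, 185396021 to 185400628), a small ankyrin repeat protein induced in hypoxia, had 0.578, 0.895 and 0.895 CPM with Palmul-tang, against 2.05 and 1.96 CPM with Samul-tang and 1.54 CPM with Sagunja-tang. It lies below the level set for naming genes and is given because 3 genes were called in all. Its log2 change was −1.22 (SE 0.217, edgeR adjusted p = 0.0198). The adjusted p was 0.129 without replicate 2 and 0.106 without replicate 3 of Samul-tang, and 0.267 without replicate 1 and 0.0559 without replicate 3 of Palmul-tang. In the fit of the compared groups only it was 0.0596. DESeq2 called ID2 and ID3 but not ANKRD37, for which it gave no adjusted p. ANKRD37 overlaps UFSP2 on the other strand, which did not move with it (log2 change 0.06).

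**Figure D1:**
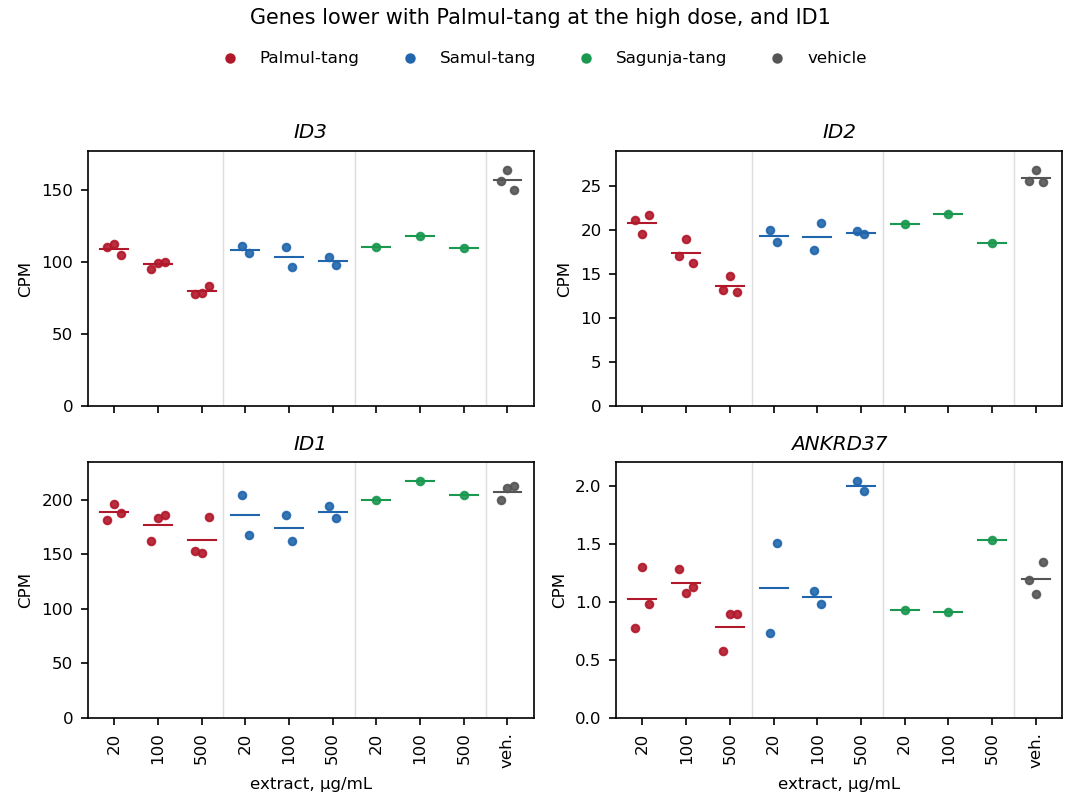
Level in CPM (vertical axis, from 0) of ID3, ID2, ID1 and ANKRD37 in each library, by formula and dose in µg/mL (horizontal axis), with the vehicle libraries at the right. Points are libraries and lines are group means. ID3 and ID2 are lowest in the 3 Palmul-tang libraries at 500 µg/mL, at 77.6 to 83.8 CPM and 12.98 to 14.8 CPM, and lie at like levels in all formulas at 20 µg/mL.

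At the low dose, ID3 had 111, 112 and 105 CPM with Palmul-tang, against 111 and 106 CPM with Samul-tang and 110 CPM with Sagunja-tang, and the groups overlapped. ID2 had 21.1, 19.6 and 21.6 CPM with Palmul-tang, against 20.0 and 18.7 CPM with Samul-tang and 20.7 CPM with Sagunja-tang. The vehicle libraries held 157, 164 and 150 CPM of ID3 and 25.5, 26.8 and 25.4 CPM of ID2, above all libraries of these 3 formulas. Their codes start differently from those of all 3 formulas, so extract and code cannot be told apart in this gap. The high minus low change of ID2 was −0.61 with Palmul-tang (edgeR adjusted p = 2.69e-07), 0.03 with Samul-tang (adjusted p = 0.931) and −0.16 with Sagunja-tang, where 1 library is set against 1 and no p is given. The difference between the Palmul-tang change and that of the components together was −0.57 for ID2 (SE 0.0954, edgeR adjusted p = 0.0192), the 1 gene of 17701 (0.00565%) that passed in this test, with 687 genes (3.88%) at an unadjusted p under 0.05 and 3 by DESeq2. This call was lost without replicate 2 of Samul-tang at the high dose (adjusted p = 0.14), replicate 3 of Samul-tang at the low dose (0.159), replicate 1 (0.141) or replicate 3 (0.0632) of Palmul-tang at the high dose, or replicate 1 (0.075) or replicate 3 (0.0582) of Palmul-tang at the low dose. Without replicate 3 of Samul-tang at the high dose, 3 genes passed. For ID3 the same difference was −0.38 (SE 0.072, edgeR adjusted p = 0.0865).

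The same contrast was read at the lower doses. At 20 µg/mL, 0 of 17701 genes (0%) differed between Palmul-tang and the component libraries by edgeR, with 464 (2.62%) at an unadjusted p under 0.05 and 2 by DESeq2, and the SD of the log2 changes was 0.0653. At 100 µg/mL, 0 genes (0%) differed by edgeR, with 1092 (6.17%) at an unadjusted p under 0.05 and 0 by DESeq2, and the SD was 0.0892. ID3 had 95.6 to 100 CPM in the Palmul-tang libraries at 100 µg/mL, between its levels at the doses on either side.

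Other targets of BMP signals were read from a list of 18 tested genes of the TGF-beta and BMP response. ID3 and ID2 were the 2 members called lower with Palmul-tang (0.0169% of all genes), and none was called higher. In 7 of 18 members all Palmul-tang libraries were below all component libraries (5.05% of all genes), and in 1 they were all above (5.5%). The list's median log2 change was −0.06, against 0.01 over all genes tested. ID1, the paralogue of ID3, had 152, 151 and 184 CPM with Palmul-tang, against 194 and 183 CPM with Samul-tang and 204 CPM with Sagunja-tang (edgeR adjusted p = 0.446), and the third Palmul-tang library fell among the components. ATOH8, a helix-loop-helix factor under BMP control, had 177, 194 and 188 CPM with Palmul-tang, against 214 and 201 CPM with Samul-tang and 222 CPM with Sagunja-tang (edgeR adjusted p = 0.22). SMAD6, an inhibitor of BMP signals that is itself a BMP target, had 8.55, 9.88 and 9.85 CPM with Palmul-tang, against 9.88 and 11.6 CPM with Samul-tang and 12.3 CPM with Sagunja-tang (edgeR adjusted p = 0.446). SMAD7, an inhibitor of both branches, had 5.81, 5.01 and 6.63 CPM, against 5.21, 6.21 and 6.44 CPM, and the groups overlapped. ID4 was under 0.33 CPM in each of the 6 libraries.

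The question whether Palmul-tang went beyond both components was tested for each gene by the larger of its p-values against Samul-tang and against Sagunja-tang. In the 17701 genes, ID3 alone passed (0.00565%, edgeR adjusted p = 0.0285), with 137 genes (0.774%) at an unadjusted p under 0.05 and 2 genes by DESeq2. ID2 had an adjusted p of 0.519 in this test. The ID3 call was lost without replicate 2 (adjusted p = 1) or replicate 3 (0.168) of Samul-tang, and without replicate 1 (0.429) or replicate 2 (0.142) of Palmul-tang. It was also lost in the fit of the compared groups only (0.226). For the opposite case, a level between the components that differed from both, 0 genes (0%) passed by edgeR, with 64 (0.362%) at an unadjusted p under 0.05 and 0 by DESeq2.

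By sign alone and with no test, the fitted Palmul-tang level lay between the component levels for 7690 genes (43.4%), above both for 5207 (29.4%) and below both for 4804 (27.1%). The gene lists departed from this in both ways. Of 31 hypoxia and glycolysis genes, 24 lay between and 7 below both. Of 25 genes of cholesterol synthesis and uptake, 7 lay between and 17 below both, and of 13 fatty acid synthesis genes 5 lay between and 8 below both. The signs of these 2 lists against Samul-tang rest on small changes, with medians of −0.04 and −0.02. Of 10 AhR targets tested, 8 lay between. So did 8 of 10 ABC transporters and 11 of 13 mitochondrial DNA-encoded genes, lists with no called member against either component.

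The components themselves differed in 118 of 17701 genes (0.667%), 72 higher (0.407%) and 46 lower (0.26%) with Samul-tang than with Sagunja-tang (90 higher and 114 lower with no filter on low counts), and 1750 (9.89%) had an unadjusted p under 0.05. Without replicate 3 of Samul-tang the count was 44. Over the 118 genes, the Palmul-tang position was scored as 0 at the Sagunja-tang level and 1 at the Samul-tang level. Its median was 0.579 (interquartile range 0.45 to 0.755), and 106 genes (89.8%) lay between the components. These genes were chosen for a component difference and scored against the same libraries, so this is a description with no test.

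The position is given by direction, with no test. For the 72 genes higher with Samul-tang the median was 0.508, with 71 between. For the 46 genes lower with Samul-tang it was 0.724, with 35 between and 11 past the Samul-tang level. Of these 11 genes, 7 belong to the lists of cholesterol or fatty acid synthesis, with INSIG1, MVK and FDFT1 among them. Those lists held 10 (cholesterol) and 5 (fatty acid) of the 46 genes. None of the 11 was called against Samul-tang, and FADS2 among them had a log2 change of −4.7e-05 from it. Of the 118 genes, Palmul-tang differed from Samul-tang alone in 16, from Sagunja-tang alone in 23, from both in 2 (CYP1A1 and CYP1B1) and from neither in 77.

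**Figure D2:**
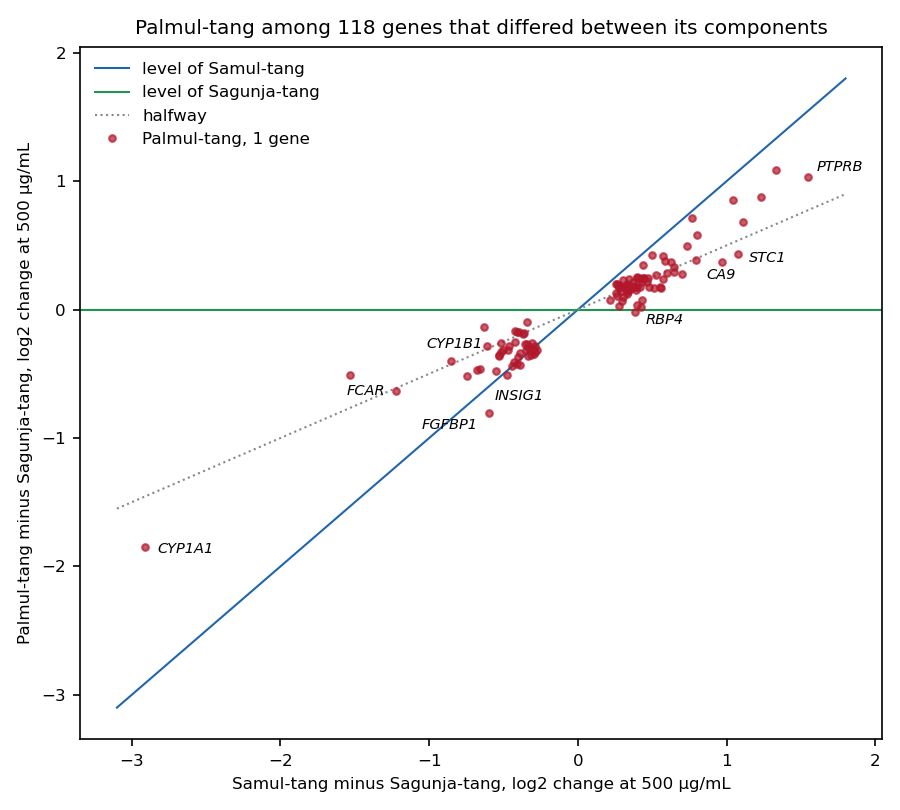
Each point is 1 of 118 genes that differed between the components at 500 µg/mL: Samul-tang minus Sagunja-tang (horizontal) and Palmul-tang minus Sagunja-tang (vertical), both as log2 changes that share the single Sagunja-tang library. Points between the 2 solid lines, 106 of 118, have a Palmul-tang level between the components, and INSIG1 lies just past the line of Samul-tang and FGFBP1 farthest past it, at a position of 1.34.

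Against Sagunja-tang, 28 genes differed (0.158%), 27 lower (0.153%) and 1 higher (0.00565%) with Palmul-tang. At an unadjusted p under 0.05 there were 1146 genes (6.47%), 553 lower (3.12%) and 593 higher (3.35%). DESeq2 called 42 genes, 29 lower and 13 higher, edgeR with no filter on low counts 63 lower and 15 higher, and edgeR with the replicate block 27 lower and 8 higher. The higher called gene was PTPRB, a receptor tyrosine phosphatase (log2 change 1.03). In the cholesterol list 10 of 25 genes were lower with Palmul-tang than with Sagunja-tang and none was higher, and 10 were lower with Samul-tang than with Sagunja-tang (0.26% of all genes). Against Samul-tang 0 of 25 were called (0.192% of all genes), with 2 higher at an unadjusted p under 0.05 (4.37% of all genes). The list's median log2 change was −0.22 against Sagunja-tang and −0.04 against Samul-tang.

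INSIG1 (ENSG00000186480, chromosome 7, 155297776 to 155310235), the anchor of SREBP and itself a sterol-regulated gene, had 49.4, 48.6 and 51.6 CPM with Palmul-tang, against 53.2 and 48.8 CPM with Samul-tang and 70.9 CPM with Sagunja-tang. The Sagunja-tang library was the highest, and the other formulas overlapped. Its log2 change was −0.51 against Sagunja-tang (SE 0.0576, edgeR adjusted p = 2.7e-06) and −0.03 against Samul-tang (95% interval −0.13 to 0.07). LSS (ENSG00000160285, chromosome 21, 46188141 to 46228824), lanosterol synthase, had 69.8, 69.3 and 72.2 CPM with Palmul-tang, against 66.4 and 67.6 CPM with Samul-tang and 97.9 CPM with Sagunja-tang. Its log2 change was −0.47 against Sagunja-tang (SE 0.053, edgeR adjusted p = 2.62e-06) and 0.07 against Samul-tang (95% interval −0.02 to 0.16). LSS overlaps antisense genes by exon, and so, among the genes that follow, do MVK (MMAB), FDPS, FDFT1 and HMGCS1.

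Called members also included the synthesis enzymes MVK, MVD, FDPS, FDFT1, DHCR7 and HMGCS1, with log2 changes of −0.44 (MVD) to −0.31 (HMGCS1).

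In the fatty acid synthesis list 4 of 13 genes were lower with Palmul-tang than with Sagunja-tang (0.153% of all genes), and 0 of 13 were called against Samul-tang (0.192% of all genes). They were SCD, FADS1 and FADS2, which put double bonds into fatty acids, and ACSS2, which makes acetyl-CoA from acetate. FADS2 had 500.3, 513 and 483 CPM with Palmul-tang, against 512 and 486 CPM with Samul-tang and 678 CPM with Sagunja-tang (log2 change −0.44 against Sagunja-tang, edgeR adjusted p = 5.75e-06). FADS2 overlaps FADS1 and FEN1 by exon, so its counts are uncertain. SCD had 927, 943 and 899 CPM with Palmul-tang, against 883 and 929 CPM with Samul-tang and 1223 CPM with Sagunja-tang (edgeR adjusted p = 0.000265). PCYT2, an enzyme of phosphatidylethanolamine synthesis, and FGFBP1, a secreted carrier of fibroblast growth factors, were also lower than with Sagunja-tang. The PCYT2 call was lost in the fit of the compared groups only (adjusted p = 0.0573). FGFBP1 had 8.52, 8.39 and 8.30 CPM with Palmul-tang, against 9.98 and 9.37 CPM with Samul-tang and 14.7 CPM with Sagunja-tang (edgeR adjusted p = 7.62e-05 against Sagunja-tang).

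The high level of these genes in Sagunja-tang rests on 1 library. At 20 µg/mL INSIG1 had 55.6, 57.1 and 59.0 CPM with Palmul-tang, against 54.8 and 54.8 CPM with Samul-tang and 58.4 CPM with Sagunja-tang. LSS had 81.0, 75.6 and 76.8 CPM with Palmul-tang at that dose, against 78.0 and 72.7 CPM with Samul-tang and 77.9 CPM with Sagunja-tang. The formulas overlapped at that dose for both genes, apart from INSIG1 with Samul-tang, where both libraries were the lowest. The test of the high minus low change found 2 of 17701 genes (0.0113%) that differed between Palmul-tang and Sagunja-tang, with 611 (3.45%) at an unadjusted p under 0.05. This test rests on 1 Sagunja-tang library at each dose, assumed to vary like the other groups. The genes were LSS (−0.47, SE 0.0769, edgeR adjusted p = 0.0123) and INSIG1 (−0.48, SE 0.0834, edgeR adjusted p = 0.0211). INSIG1 fell with Palmul-tang by 0.20 between these doses (edgeR adjusted p = 0.00369). Its change was −0.10 with Samul-tang (adjusted p = 0.38) and 0.28 with Sagunja-tang, between single libraries. The count was 4 without replicate 2 of Palmul-tang at the high dose, and 1 without its replicate 1 or without replicate 3 at the low dose. In the fit of the compared groups only it was 0.

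Targets of the AhR were read from a list of their own. Of 10 tested targets, 2 were higher with Palmul-tang than with Samul-tang (0.0565% of all genes) and 3 lower than with Sagunja-tang (0.153% of all genes). CYP1A1 (ENSG00000140465, chromosome 15, 74719542 to 74725610), whose promoter is shown above, had 4.53, 3.58 and 3.104 CPM with Palmul-tang, against 2.05 and 1.53 CPM with Samul-tang and 13.5 CPM with Sagunja-tang. The Palmul-tang libraries lay above Samul-tang and below Sagunja-tang with no overlap. CYP1A1 lies below the level set for naming genes, with a mean of −0.42 on the log2 CPM scale. Its calls were not read in the alternative fits. The log2 change was 1.06 against Samul-tang (SE 0.211, edgeR adjusted p = 0.0226) and −1.85 against Sagunja-tang (SE 0.199, edgeR adjusted p = 1.97e-06). In the test of a level between the components its adjusted p was 0.316. In the vehicle it had 0.342, 0.534 and 0.245 CPM, and at 20 µg/mL the highest library of these formulas had 0.310 CPM.

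CYP1B1 (ENSG00000138061, chromosome 2, 38066973 to 38109902), the second P450 enzyme under the AhR, had 210, 204 and 206 CPM with Palmul-tang, against 182 and 181 CPM with Samul-tang and 259.6 CPM with Sagunja-tang. Its log2 change was 0.19 against Samul-tang (SE 0.0417, edgeR adjusted p = 0.0461) and −0.33 against Sagunja-tang (SE 0.0512, edgeR adjusted p = 0.00067). The call against Samul-tang was lost when any one of the 5 libraries was left out, with adjusted p of 0.37 and 0.368 without replicate 2 and 3 of Samul-tang and 0.162, 0.0834 and 0.155 without replicate 1, 2 and 3 of Palmul-tang. CYP1B1 overlaps RMDN2 and antisense genes by exon. ALDH3A1, an aldehyde dehydrogenase under the AhR, had 1668, 1676 and 1602 CPM with Palmul-tang, against 1464 and 1426 CPM with Samul-tang (edgeR adjusted p = 0.114) and 2052 CPM with Sagunja-tang (edgeR adjusted p = 0.0118). NQO1, shared with NRF2, had 1576, 1378 and 1541 CPM, against 1497, 1467 and 1518 CPM in the 3 component libraries, and the groups overlapped.

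Against Samul-tang, 34 genes differed (0.192%), 10 higher (0.0565%) and 24 lower (0.136%) with Palmul-tang. At an unadjusted p under 0.05 there were 1649 genes (9.32%), 774 higher (4.37%) and 875 lower (4.94%). With the replicate block there were 31 higher and 33 lower. Without replicate 2 or 3 of Samul-tang the counts were 8 and 6, and without replicate 1 or 3 of Palmul-tang 21 and 19. In the hypoxia and glycolysis list, 5 of 31 genes were lower with Palmul-tang and none was higher: STC1, CA9, ANKRD37, ALDOA and ALDOC. Against Sagunja-tang 0 of 31 were called, with 8 higher (3.35% of all genes) and 2 lower (3.12%) at an unadjusted p under 0.05. Between the components 7 of 31 were higher with Samul-tang (0.407% of all genes). The list's median log2 change was −0.15 against Samul-tang, 0.09 against Sagunja-tang and −0.07 against both together.

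STC1 (ENSG00000159167, chromosome 8, 23841915 to 23854807), stanniocalcin 1, a secreted glycoprotein, had 23.3, 24.5 and 23.6 CPM with Palmul-tang, against 36.3 and 38.3 CPM with Samul-tang and 17.6 CPM with Sagunja-tang. Palmul-tang lay between the components with no overlap. The log2 change was −0.65 against Samul-tang (SE 0.0782, edgeR adjusted p = 4.09e-05) and 0.43 against Sagunja-tang (SE 0.107, edgeR adjusted p = 0.14). CA9 (ENSG00000107159, chromosome 9, 35673856 to 35681159), a membrane carbonic anhydrase, had 64.9, 67.2 and 70.9 CPM with Palmul-tang, against 91.1 and 88.9 CPM with Samul-tang and 51.9 CPM with Sagunja-tang. Its log2 change was −0.41 against Samul-tang (SE 0.0644, edgeR adjusted p = 0.00169) and 0.38 against Sagunja-tang (SE 0.0854, edgeR adjusted p = 0.0579). Without replicate 2 of Samul-tang the CA9 call against Samul-tang was lost (adjusted p = 0.0897). CA9 overlaps ARHGEF39 on the other strand.

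The aldolase genes ALDOA and ALDOC encode enzymes of glycolysis. ALDOA had 1807, 1779 and 1739 CPM with Palmul-tang, against 2179 and 2049 CPM with Samul-tang and 1742 CPM with Sagunja-tang, a log2 change of −0.25 against Samul-tang (edgeR adjusted p = 0.0249). Both overlap other genes by exon. ALDOC had 19.7, 19.6 and 16.9 CPM with Palmul-tang, against 23.7 and 23.5 CPM with Samul-tang and 18.8 CPM with Sagunja-tang (edgeR adjusted p = 0.0384 against Samul-tang). The ALDOC adjusted p was 0.346 without replicate 2 and 0.282 without replicate 3 of Samul-tang, and 0.24 without replicate 3 of Palmul-tang. In the vehicle, STC1 had 30.2, 28.4 and 32.4 CPM and CA9 75.3, 79.4 and 79.9 CPM.

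Of 20 tested genes for the secreted plasma proteins that hepatocytes make, 3 were lower with Palmul-tang than with Samul-tang (0.136% of all genes). Against Sagunja-tang 0 were called (0.158% of all genes), with 4 higher at an unadjusted p under 0.05 (3.35% of all genes). RBP4 (ENSG00000138207, chromosome 10, 93591687 to 93601744), the retinol carrier, had 91.9, 91.4 and 92.2 CPM with Palmul-tang, against 117 and 119 CPM with Samul-tang and 89.5 CPM with Sagunja-tang. The log2 change was −0.36 against Samul-tang (SE 0.05, edgeR adjusted p = 0.000275) and 0.04 against Sagunja-tang (95% interval −0.09 to 0.17). TF, transferrin, had 10.3, 10.5 and 11.7 CPM with Palmul-tang, against 15.3 and 17.5 CPM with Samul-tang and 8.37 CPM with Sagunja-tang (log2 change −0.60 against Samul-tang, edgeR adjusted p = 0.0348), and it overlaps SRPRB by exon. That call was lost without replicate 2 (adjusted p = 0.105) or 3 (0.391) of Samul-tang and without replicate 1 (0.15) or 2 (0.0834) of Palmul-tang. The third gene was FGB, the fibrinogen beta chain (log2 change −0.20, edgeR adjusted p = 0.0373).

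**Figure D3:**
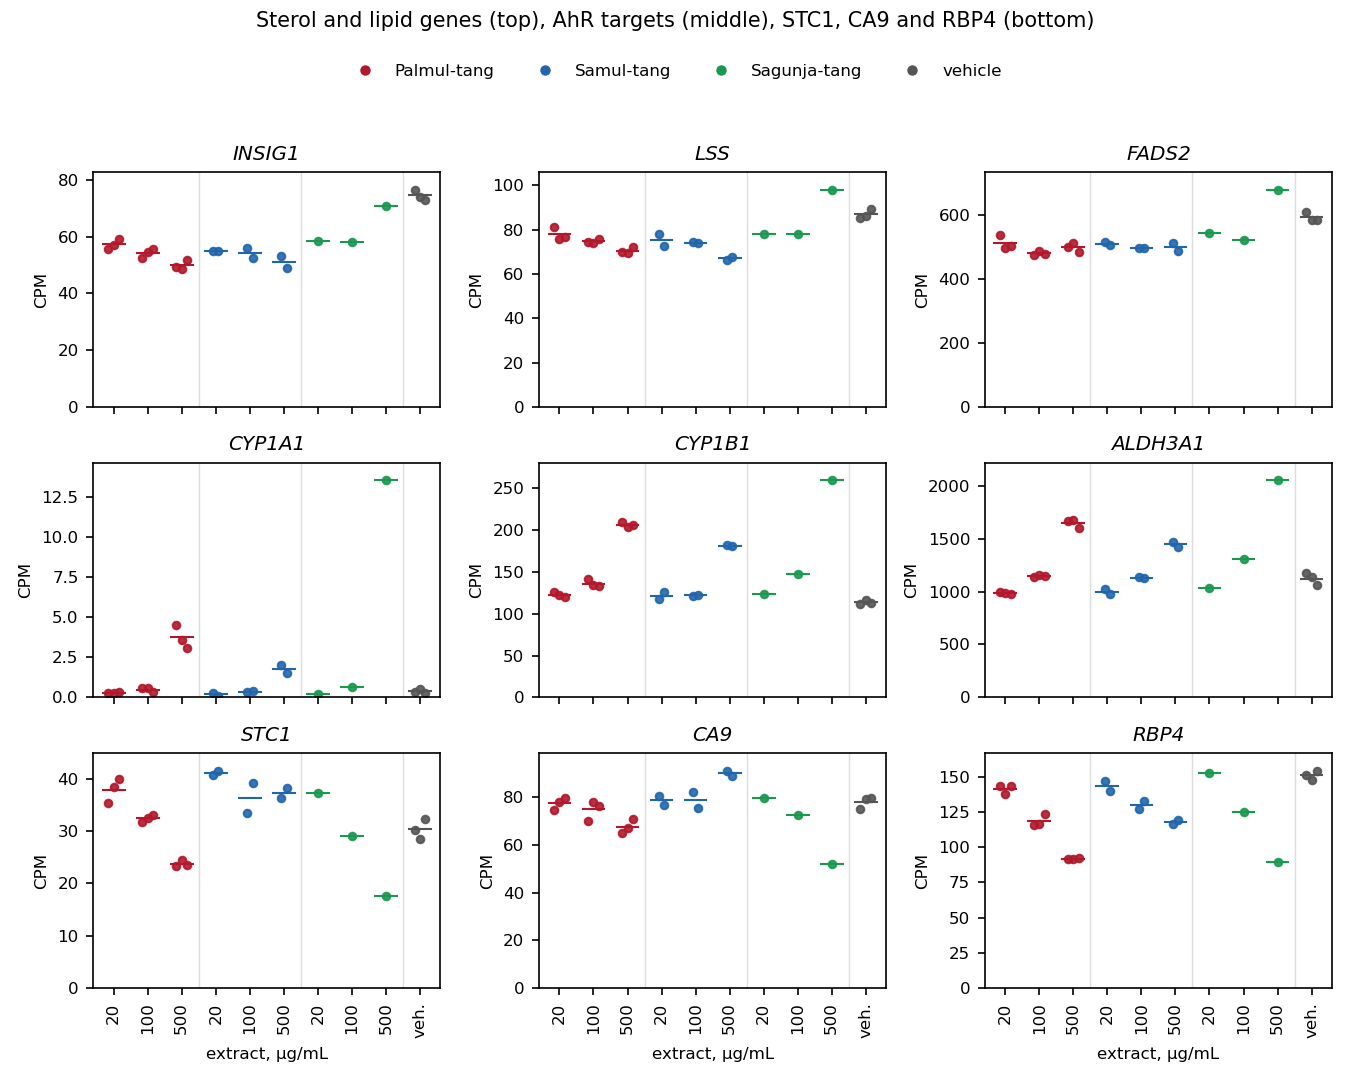
Level in CPM (vertical axes, from 0) in each library by formula and dose in µg/mL, with vehicle at the right. Points are libraries and lines are group means. In the top row Palmul-tang and Samul-tang lie together at 500 µg/mL below the single Sagunja-tang library. In the middle row Palmul-tang lies between the components. In the bottom row STC1 and CA9 lie between, and RBP4 lies with Sagunja-tang (91.4 to 92.2 and 89.5 CPM).

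A few further genes differed from Samul-tang. HOXB13, a homeobox factor, had 26.6, 26.3 and 27.7 CPM with Palmul-tang, against 34.2 and 36.8 CPM with Samul-tang and 27.2 CPM with Sagunja-tang (log2 change −0.40 against Samul-tang, edgeR adjusted p = 0.00102). LOXL2, a lysyl oxidase that cross-links collagen, had 36.4, 41.7 and 36.4 CPM with Palmul-tang, against 49.1 and 48.3 CPM with Samul-tang and 36.1 CPM with Sagunja-tang (edgeR adjusted p = 0.00193), and it overlaps ENTPD4 by exon. The HOXB13 call was lost without replicate 3 of Samul-tang (adjusted p = 0.103), and the LOXL2 call without replicate 2 (0.0949) or 3 (0.0506) of Samul-tang. MUC13, a membrane mucin and the 1 called member of the list of mucins and gastric-type genes against Samul-tang, had 16.9, 15.6 and 14.7 CPM with Palmul-tang, against 20.1 and 20.8 CPM with Samul-tang and 13.9 CPM with Sagunja-tang (edgeR adjusted p = 0.0384). The MUC13 adjusted p was 0.263 and 0.37 without replicate 2 and 3 of Samul-tang, and 0.077 and 0.202 without replicate 2 and 3 of Palmul-tang. Among the higher genes, BIRC3, an inhibitor of apoptosis and NF-kB target, had a log2 change of 0.23 and CPNE7, a calcium-dependent phospholipid-binding copine, one of 0.49 (edgeR adjusted p = 0.0437 for CPNE7). The CPNE7 adjusted p was 0.748 without replicate 2 of Samul-tang, 0.102 without replicate 2 and 0.209 without replicate 3 of Palmul-tang. The BIRC3 adjusted p was 0.605 and 0.14 without replicate 2 and 3 of Samul-tang, and 0.208 and 0.0906 without replicate 1 and 2 of Palmul-tang.

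With 0.192% of all genes called against Samul-tang, 0.158% against Sagunja-tang and 0.0169% against both together, a list with 0 called members is near the background. No member of the mitosis (30 tested), DNA replication (34), proteasome (25), cytosolic ribosomal protein (30), aminoacyl-tRNA synthetase (20), interferon-stimulated (25), NRF2 (31), p53 (23) or heat shock (18) list was called against Samul-tang or against Sagunja-tang, nor against both together. The same held for the lists of ATF4 targets (29), FOXO targets (18), ER chaperones (21), metallothioneins (6), the Notch pathway (12), aldo-keto reductases and phase II enzymes (23), ABC transporters (10), lysosome and autophagy (23), the nuclear-encoded respiratory chain (27), CLK kinases and SR factors (17) and replication-dependent histones (9). Beside the mucin list, some lists had a single called member in a comparison. Against Samul-tang these were ANGPTL4, a lipase inhibitor (PPAR and glucocorticoid lists, log2 change −0.34), NR4A1, an orphan nuclear receptor (immediate early genes, −0.40), BHLHE40, a clock repressor (−0.26), BIRC3 (NF-kB list, 0.23) and CYP4F3, a fatty acid hydroxylase (0.24). Against Sagunja-tang they were TSC22D3, a glucocorticoid-induced leucine zipper protein (−0.34), and KRT19 (epithelial and mesenchymal list, −0.31). The ANGPTL4, NR4A1, BIRC3 and CYP4F3 calls were each lost without either Samul-tang library. The BHLHE40, TSC22D3 and KRT19 calls were not read in the alternative fits. At an unadjusted p under 0.05, the NRF2 list (31 tested) had 6 higher (4.37% of all genes) and 3 lower (4.94%) against Samul-tang. Against Sagunja-tang it had 1 higher (3.35%) and 2 lower (3.12%). Among the other lists, the 13 mitochondrial DNA-encoded genes had medians of −0.25 against Samul-tang and 0.22 against Sagunja-tang, and none was called. MT-CO1, a subunit of cytochrome oxidase, spread from 32980 to 41890 CPM among the Palmul-tang libraries alone, and its 95% interval against Samul-tang was −0.54 to 0.04.

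**Figure D4:**
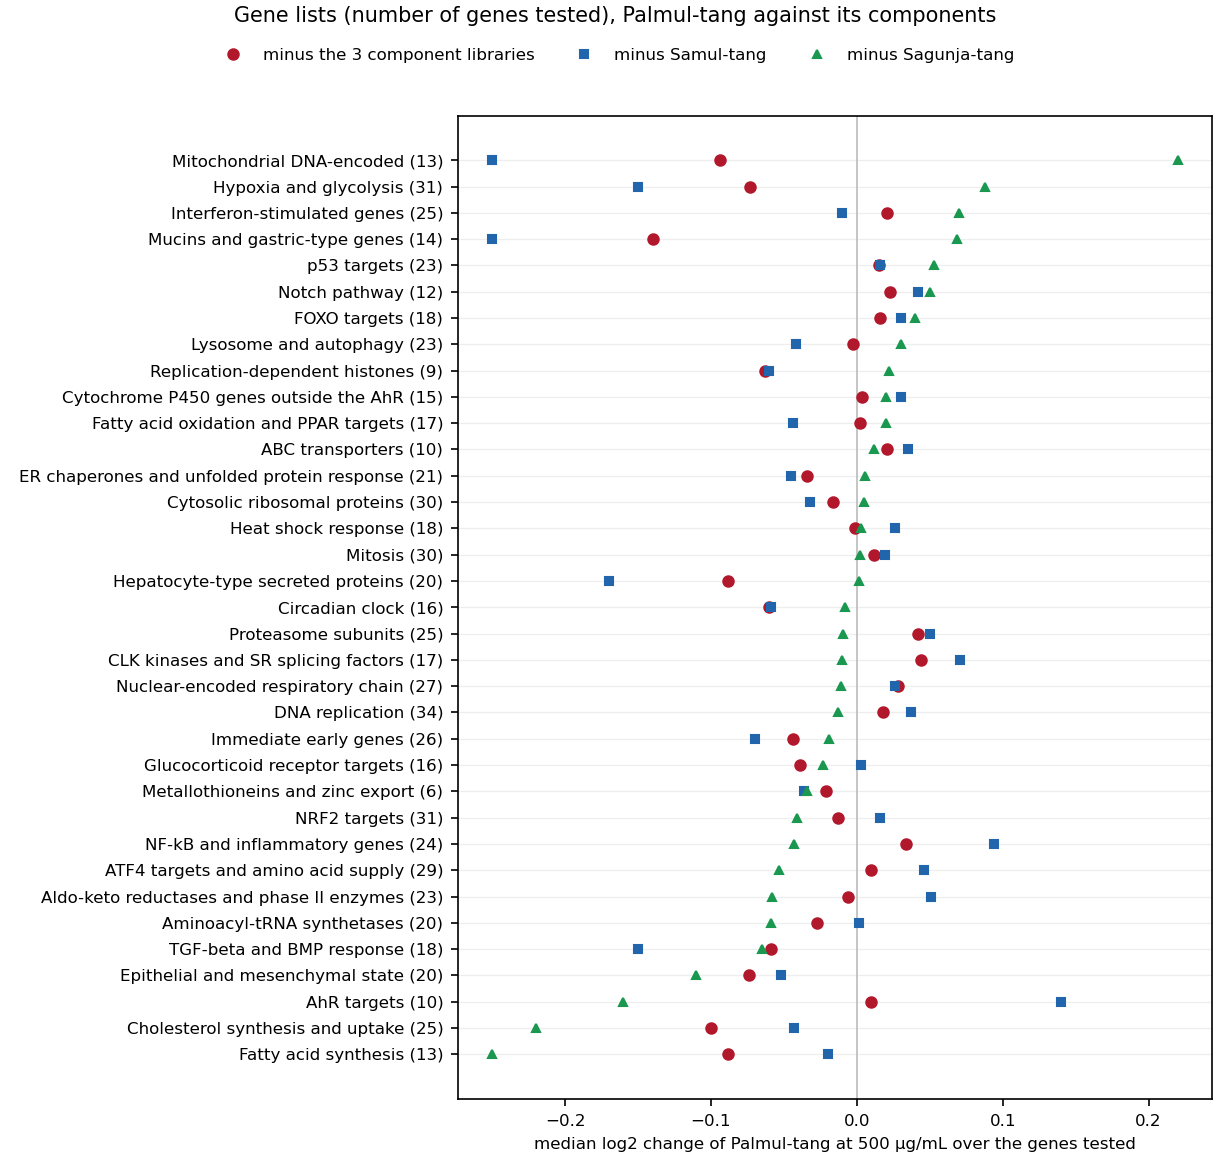
Median log2 change (horizontal axis) of Palmul-tang at 500 µg/mL over the tested genes of each of 35 lists, against the 3 component libraries (circles), Samul-tang (squares) and Sagunja-tang (triangles). Hypoxia genes have medians of −0.15 and 0.09 on opposite sides of 0, and cholesterol genes have −0.22 against Sagunja-tang and −0.04 against Samul-tang.

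The response of each formula was also read within its own libraries, from the low to the high dose, so that the formulas share no library. Palmul-tang changed 615 genes (3.47%), 258 higher (1.46%) and 357 lower (2.02%), with 2492 (14.1%) at an unadjusted p under 0.05. Samul-tang changed 238 (1.34%), 107 higher (0.604%) and 131 lower (0.74%) (154 and 150 by DESeq2), with 2456 (13.9%) at an unadjusted p under 0.05. The numbers of libraries differ, so the counts are not compared, and Sagunja-tang, with 1 library at each dose, gives no count. The Palmul-tang count was 351 without replicate 1 at the high dose and 371 without replicate 3 at the low dose. The Samul-tang count was 58 and 106 without replicate 2 and 3 at the high dose, and 149 and 49 without replicate 2 and 3 at the low dose.

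Of 107 genes that rose with Samul-tang, 60 rose with Palmul-tang (56.1% of these, and 23.3% of the 258 that rose with Palmul-tang). Their median log2 change was 0.18 with Palmul-tang, against 0.29 with Samul-tang, in which they were chosen. Of 131 genes that fell with Samul-tang, 80 fell with Palmul-tang (61.1%, and 22.4% of the 357 that fell with Palmul-tang), with medians of −0.27 with Palmul-tang and −0.35 with Samul-tang. The medians in Samul-tang are of genes chosen there and are a description.

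The difference of the responses was tested as well. Between Palmul-tang and Samul-tang, 1 of 17701 genes (0.00565%) differed, ID2 (−0.63, SE 0.107, edgeR adjusted p = 0.0221), with 927 (5.24%) at an unadjusted p under 0.05. DESeq2 called 6 other genes and not ID2. It gave an adjusted p for only 3288 genes here, so the missing ID2 call need not be a failed test. Without replicate 2 of Samul-tang at the high dose the 1 gene called was another, which was higher. The count was 0 without replicate 3 of Samul-tang at the high dose, without either Samul-tang library at the low dose, and without replicate 1 or 3 of Palmul-tang at either dose. ID3 had a difference of −0.35 from Samul-tang (edgeR adjusted p = 0.443) and −0.44 from Sagunja-tang (adjusted p = 0.221). CYP1A1 rose by 3.71 with Palmul-tang and 3.30 with Samul-tang on the log2 scale, and its change between the single Sagunja-tang libraries was 5.98. Its difference from the Sagunja-tang response was −2.27 (SE 0.614, edgeR adjusted p = 0.601), and the lowest level at 20 µg/mL was 0.0906 CPM, so these folds rest on few counts. STC1 fell by 0.68 with Palmul-tang, and its change was −0.14 with Samul-tang (adjusted p = 0.476) and −1.09 between the single Sagunja-tang libraries. In these bulk samples, a lower level in each cell and fewer cells with the transcript cannot be told apart.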

How the data were processed

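RNA of A549 cells was sequenced as paired reads of 100 bases from a directional library kit, per the labels' protocols. FastQC 0.11.9, Trim Galore 0.6.5, STAR 2.7.3a and RSEM 1.3.3 on GRCh38 are named in the submitters' processing notes, and the annotation and strand setting are not given in the sources used here. The deposited table holds expected counts per gene, not normalized by the authors, for 60675 genes. Of its columns 30 were used, and 240 columns that match no sample here were not used. Libraries held 23986637 to 35159898 expected counts, of which 8.50% to 9.82% of the values were not whole. Such counts limit the precision of scarce genes.

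Expected counts were rounded and fitted in edgeR 4.0.16 (R 4.3.3; TMM scaling, quasi-likelihood test, 13 group means over all 30 libraries, 17 residual degrees of freedom), with 17701 genes left by edgeR's filter on low counts. The p-values were adjusted by Benjamini-Hochberg within each comparison over all genes tested, at 0.05, and not across comparisons. Printed CPM were computed on library sizes multiplied by their TMM factors. Component libraries were weighted equally, 2 of Samul-tang and 1 of Sagunja-tang. The levels beyond both and between used the larger of the 2 p-values. In simulated counts with 50 of 17701 genes changed at each size, changes of 0.3 on the log2 scale were recovered in 72% of genes against the components as 1 group, 62% against Samul-tang, 26% against Sagunja-tang and 20% for beyond both and for between. At 0.5 these shares were 86%, 86%, 74%, 74% and 72%. The changed genes were all drawn from those with a mean of at least 2 on the log2 CPM scale, so the shares do not cover scarcer genes. For between, the stated change was applied to Samul-tang and Sagunja-tang in opposite directions. The components then lay farther apart than the stated size. Alternatives were DESeq2 1.42.0, other scaling, no filter, a replicate block, other weights or groups, and leaving out each library.

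Genes were named by a rule: adjusted p under 0.05, a mean of at least 2 on the log2 CPM scale and a symbol, the largest changes in each direction, plus members of 35 lists with their values. The naming rule for each component and the changes between doses were chosen after seeing the data. ANKRD37, CYP1A1 and the genes called in a list were named from their counts of 5 or fewer or from their lists, after their values were seen. The members and lists were chosen with earlier results of these data known. Of 762 genes in the lists, 706 were tested. Symbols and coordinates come from GENCODE release 29 (GRCh38), which matched 57055 of the 60675 genes, and promoters from RefSeq (GRCh38.p14). Some members of the cholesterol list are counted in its totals and not reported here by name.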

Additional observations from a re-analysis of the deposited data

Results flagged for a closer look

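The change between the low and the high dose differed between formulas for 3 genes by tests of the difference itself. For ID2 the Palmul-tang change minus that of the 3 component libraries was −0.57 on the log2 scale (edgeR adjusted p = 0.0192), and minus that of Samul-tang it was −0.63 (edgeR adjusted p = 0.0221). For LSS the Palmul-tang change minus that of Sagunja-tang was −0.47 (edgeR adjusted p = 0.0123), and for INSIG1 it was −0.48 (edgeR adjusted p = 0.0211). The last 2 rest on 1 Sagunja-tang library at each dose, and neither passed in the fit of the compared groups only. The first ID2 difference did not pass in 7 of 16 alternatives, with adjusted p up to 0.159. The difference from Samul-tang was not called by DESeq2, which gave an adjusted p for only 3288 genes in that comparison and may not have tested ID2. In 8 of 10 fits that left out 1 library the edgeR call was lost.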

How the results depend on the processing

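Values are counts of genes called. Against the component libraries, the 39 below is without the Sagunja-tang library, a fit with Samul-tang as the only component. For Palmul-tang against the 3 component libraries (3 by edgeR), DESeq2 gave 9, no filter 40, the mean of the component groups 7, and leaving out 1 library 2 to 39. Against Samul-tang (34) DESeq2 gave 68, no filter 130, the fit of the compared groups only 19, and leaving out 1 library 6 to 38. Against Sagunja-tang (28) no filter gave 78, and leaving out 1 library 25 to 30. Between the components (118) no filter gave 204, the compared groups only 73, and leaving out 1 library 44 to 88. For levels beyond both (1) DESeq2 gave 2, no filter 3, the compared groups only 0, and leaving out 1 library 0 to 1. For levels between (0) no filter gave 2. At the medium dose (0) no filter gave 5 and the compared groups only 10, and at the low dose (0) DESeq2 gave 2, no filter 1 and the compared groups only 1. For the difference of the high minus low change (1) DESeq2 gave 3, no filter 3, the mean of the component groups 0, the compared groups only 2, and leaving out 1 library 0 to 3. For the change within Palmul-tang (615) the compared groups only gave 381, and leaving out 1 library 351 to 591. Within Samul-tang (238) no filter gave 464, the compared groups only 488, and leaving out 1 library 49 to 149. For the Palmul-tang change minus that of Samul-tang (1) DESeq2 gave 6, no filter 21, the compared groups only 3, and leaving out 1 library 0 to 1. Minus that of Sagunja-tang (2) DESeq2 gave 9, no filter 18, the compared groups only 0, and leaving out 1 library 1 to 4. The fits differ in the number of libraries and of genes tested, among other settings, and the cause of the changed counts was not tested. ID2 and ID3 kept their call against the component libraries in all 12 alternatives run, with adjusted p up to 0.00964. Among the genes named by the rule and ANKRD37, no log2 change turned its sign in the alternatives run. Other genes given in the text, CYP1A1, FGB, ALDOA and KRT19 among them, were not read in these alternatives. Against the component libraries (0 higher and 3 lower) the replicate block gave 4 and 4, DESeq2 2 and 7 and no filter 13 and 27. The balance of calls did turn between the components (72 higher and 46 lower, but 90 and 114 with no filter, and 43 and 45 without replicate 2 of Samul-tang), within Samul-tang (107 and 131, but 154 and 150 by DESeq2), and for the Palmul-tang change minus that of Samul-tang (0 and 1, but 1 and 0 without replicate 2 of Samul-tang at the high dose).

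Same-numbered libraries had a median correlation of deviations of 0.0247 (−0.372 to 0.456 over 111 pairs), against −0.0105 for other pairs. Palmul-tang and Samul-tang at the high dose gave only 2 same-numbered pairs. These values cannot decide whether the replicate numbers pair the libraries. With the replicate block the counts were 8 against the components, 64 against Samul-tang, 2 for the difference of the high minus low change, 373 within Samul-tang and 3 for the Palmul-tang change minus that of Samul-tang.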
